A study of Mus musculus with 24 samples.

Results

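CD8+ conventional dendritic cells (cDC) of the spleen are set here against CD11b+ cDC after both subsets had been activated in vivo in nonobese diabetic (NOD) mice. Members are the 3 arrays titled CD8 NOD CPG and the 3 titled CD11B NOD CPG, 6 of 24 arrays in all. All 21789 of 35556 probe sets that carry a single gene symbol entered, which stand for 19938 genes. Of these, 11365 lay above their array's own gene median on at least 3 of the 24 arrays and were tested.

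All mice were females of 8 to 10 weeks. The groups used here are CD8+ cDC of NOD mice injected with CpG-A (CpG CD8+ cDC), CD11b+ cDC of NOD mice injected with CpG-A (CpG CD11b+ cDC), the same subsets of NOD mice injected with PBS (PBS CD8+ cDC and PBS CD11b+ cDC), and both subsets of C57BL/6 (B6) mice given CpG-A, each with 3 arrays. Cells were taken 12 h after the injection. CD11c+ cells were sorted by CD8 and CD11b from spleens treated with collagenase, and 5 ng of total RNA was amplified before hybridisation, so every array measures amplified RNA of a sorted, mixed population. The labels do not say that arrays of a group came from separate animals. The p-values therefore measure the spread between arrays only, pooled over all 24. NOD carries no transgene in these labels, and the strain differs from B6 across its genome.

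CpG-A is a synthetic DNA with unmethylated CpG motifs that is recognised by Toll-like receptor 9 in endosomes and is a strong inducer of type I interferon. CD8+ cDC belong to the cDC1 lineage, which depends on the transcription factors IRF8 and BATF3, takes up dead cells through receptors such as CLEC9A, and is known for cross-presentation of antigen on MHC class I to CD8 T cells. CD11b+ cDC belong to the cDC2 lineage, carry SIRPα and, in spleen, the lectin DCIR2 (Clec4a4), and are known for presentation on MHC class II to CD4 T cells. On activation both lineages raise co-stimulatory molecules, cytokines and the chemokine receptor CCR7, which raises the question of which differences between them remain in activated cells.

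Values are deposited log2 expression values. A difference is the mean of CD8+ cDC minus the mean of CD11b+ cDC in log2 units, n = 3 arrays per group. A difference of 1 unit is 2-fold. The standard error after ± is from limma and rests on a spread shared by all 24 arrays in 8 groups. It is not the spread of the arrays compared, and may understate it where CpG CD8+ cDC arrays lie far apart. An interaction is the difference after CpG minus the difference under PBS. Genes are called at an adjusted p under 0.05 in limma (Benjamini-Hochberg over the 11365 genes), and "higher" and "lower" are used of called genes only. Single genes given as higher or lower, and interactions given as called, also kept that call in every alternative run, unless the sentence says otherwise, a restriction chosen after the values were seen. For a named gene with several probe sets, the run over every probe set counted only the one with the lowest adjusted p. That run could therefore hardly end a call. "Every alternative" means every one that tested the gene, since a stricter filter on low values left out 196 of the 2404 genes that held after CpG and 47 of the 269 interactions that held. Array medians lay between 5.75 and 5.85, and a value below them may be close to background, for which the files hold no call, so that differences against such values may be understated. Unless B6 is named, all values are from NOD mice.

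In a principal component analysis of all 24 arrays the first component took 47.8% of the variance. On it the CpG CD8+ cDC arrays lay at 53.5, 32.6 and 17.5, the CpG CD11b+ cDC arrays at 0.3, -8.7 and -11.4, the PBS CD8+ cDC arrays between -24.5 and -19.4 and the PBS CD11b+ cDC arrays between -44.1 and -39.8. The CpG CD8+ cDC arrays were thus spread more widely than those of the other NOD groups, with replicate 1 farthest from the rest. For several genes below this array holds the extreme value of its group. On the second component, with 24.9% of the variance, the groups after CpG did not overlap, at -17.6 to -12 in CpG CD8+ cDC and 28.7 to 35.4 in CpG CD11b+ cDC.

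After CpG 4343 of 11365 genes (38.2%) differed between the subsets, of which 1632 (14.4%) were higher and 2711 (23.9%) lower in CD8+ cDC. With the arrays quantile normalized the split was 2081 higher and 2168 lower. Under PBS 2451 genes (21.6%) differed, 1194 higher and 1257 lower. Of the 4343 calls after CpG, 2404 (55.4%) held in every alternative, 931 of them higher and 1473 lower. A fit of the 6 arrays alone called 2560 genes, 975 higher and 1585 lower. The median difference over all genes tested was -0.06 after CpG and -0.01 under PBS, and all gene lists below are to be read against these values and against the shares called. The groups of 3 arrays did not overlap for 4911 genes (43.2%), with or without a call.

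Most differences present under PBS were found again after CpG. Of the 1194 genes higher under PBS, 761 (63.7%) were also higher after CpG and 418 were no longer called. Of the 1257 genes lower under PBS, 1035 (82.3%) were also lower after CpG and 214 were no longer called. Of 75 genes at least 4-fold higher under PBS, 73 were still called and 37 were still at least 4-fold higher after CpG, and of 85 genes at least 4-fold lower, 84 and 66. The second count is part of the first and cannot exceed it, and the genes were picked by their size under PBS. In the other direction, 863 genes were called higher and 1661 called lower after CpG but not under PBS. A call in 1 condition alone does not show that the conditions differ, and the interaction itself was called for 767 genes (6.75%), 303 (2.67%) upward and 464 (4.08%) downward, of which 269 held in every alternative. The count of 767 was 480 without replicate 3 of PBS CD8+ cDC, 481 without replicate 1 and 1676 without replicate 3 of CpG CD8+ cDC, and 483 without replicate 2 of CpG CD11b+ cDC. With quantile normalization the interaction split into 398 upward and 390 downward.

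**Figure D1:**
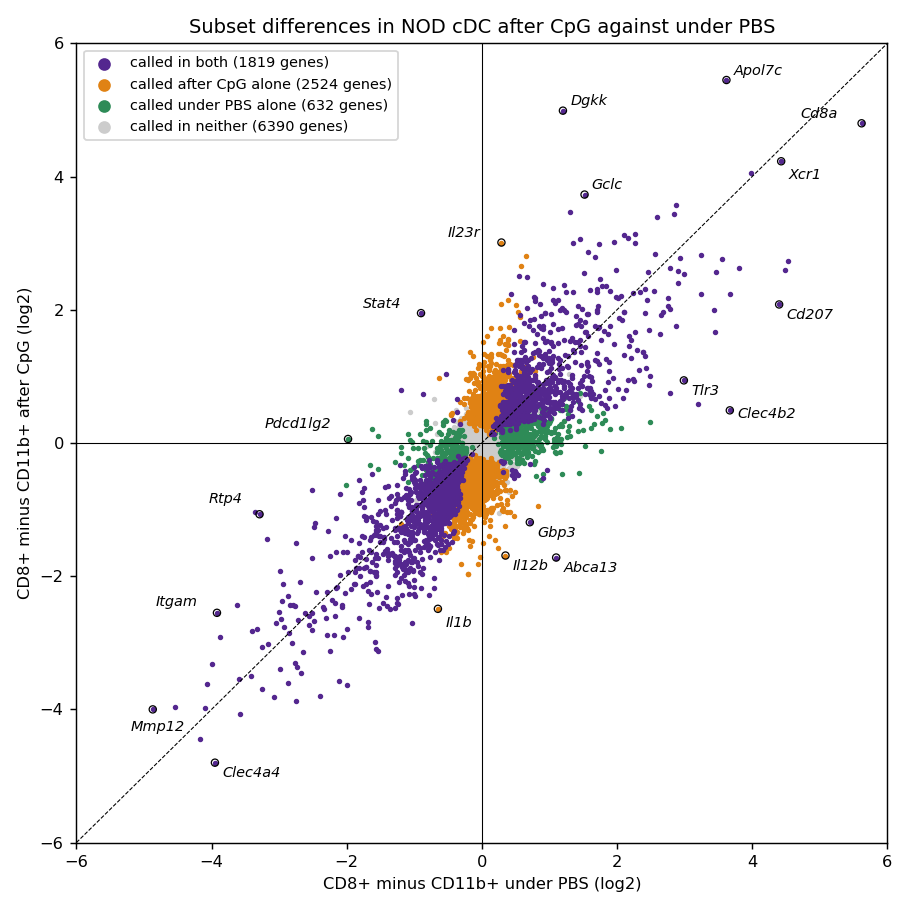
Each point is 1 of the 11365 genes tested, with its difference (CD8+ minus CD11b+ cDC, log2) under PBS on the x axis and after CpG on the y axis, coloured by whether it was called in both conditions (1819 genes), after CpG alone (2524), under PBS alone (632) or in neither (6390). The dashed line marks equal differences. Cd8a, Xcr1, Clec4a4 and Mmp12 lie far out near it, while Dgkk and Il23r lie above it, and Cd207, Tlr3, Clec4b2 and Abca13 lie below it.

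The genes that mark the CD8+ lineage stayed higher in CD8+ cDC after CpG, and several of them by a smaller margin than under PBS. Of 25 tested cDC1 markers, 22 were higher and none lower in CpG CD8+ cDC, 20 of the 22 in every alternative, with a median difference of 1.96. Under PBS 22 were higher with a median of 2.78. The interaction was called downward for 8 of the 25 and upward for none, 4 of the 8 in every alternative.

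Cd8a encodes the CD8α chain by which the cells were sorted, so its difference checks the sort. It measured 11.16, 11.41 and 11.54 in CpG CD8+ cDC, against 6.99, 6.23 and 6.48 in CpG CD11b+ cDC. Under PBS it measured 11, 10.99 and 11.19 in CD8+ cDC, against 5.04, 5.14 and 6.15 in CD11b+ cDC. The subsets did not overlap in either condition, and the difference after CpG was 4.80 ± 0.26 (adjusted p = 1.72e-12), 27.9-fold.

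Xcr1, the receptor for the chemokine XCL1 made by CD8 T and NK cells, measured 9.86, 10.64 and 11.22 in CpG CD8+ cDC, against 6.39, 6.15 and 6.48 in CpG CD11b+ cDC. Its difference of 4.23 ± 0.22 (adjusted p = 9.70e-13) was close to the 4.43 measured under PBS, with an interaction of -0.20 ± 0.31 (adjusted p = 0.751). Cd36, a scavenger receptor, was higher by 2.82, Naaa, an enzyme that breaks down N-acylethanolamines, by 2.78, and Cd24a, a glycosylated surface protein, by 2.18. Each of these 3 differed by less than 0.5 from its difference under PBS, and none of the 3 interactions was called.

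Clec9a, the receptor for exposed actin of dead cells, measured 10.24, 10.44 and 10.87 in CpG CD8+ cDC, against 8.08, 7.53 and 7.62 in CpG CD11b+ cDC, with no overlap. The difference was 2.77 ± 0.17 (adjusted p = 8.77e-12) after CpG and 3.55 under PBS. Cadm1, an adhesion molecule of cDC1, was higher by 1.96 after CpG and by 2.68 under PBS, and Rab7b, a small GTPase of late endosomes, by 2.62 after CpG and 3.81 under PBS. None of the interactions of these 3 genes held in every alternative.

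Other markers of the lineage drew closer between the subsets, and here the interaction passed in every alternative. Itgae, the αE integrin CD103, measured 6.73, 7.64 and 8.48 in CpG CD8+ cDC, against 5.13, 5.16 and 4.78 in CpG CD11b+ cDC. Under PBS it measured 9.88, 9.71 and 9.45 in CD8+ cDC, against 5.18, 5.25 and 5.14 in CD11b+ cDC. The difference was 2.60 ± 0.26 after CpG (adjusted p = 3.19e-08) and 4.49 under PBS, an interaction of -1.90 ± 0.37 (adjusted p = 0.00276).

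Cd207, the lectin langerin, measured 6.43, 6.81 and 7.95 in CpG CD8+ cDC, against 4.98, 5.03 and 4.92 in CpG CD11b+ cDC. Under PBS it measured 8.81, 9.10 and 9.26 in CD8+ cDC, against 4.44, 4.69 and 4.84 in CD11b+ cDC. The level in CpG CD8+ cDC thus lay between that of PBS CD8+ cDC and that of both CD11b+ groups, with a difference of 2.08 ± 0.24 and an interaction of -2.32 ± 0.34 (adjusted p = 0.000242).

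Tlr3, a receptor for double-stranded RNA, measured 8.92, 9.63 and 10.15 in CpG CD8+ cDC, against 8.77, 8.85 and 8.28 in CpG CD11b+ cDC. Under PBS the values were 10.41, 10.41 and 10.69 in CD8+ cDC, against 7.37, 7.47 and 7.71 in CD11b+ cDC. CpG CD8+ cDC lay below their PBS counterpart and CpG CD11b+ cDC above theirs, and the difference was 0.94 ± 0.22 after CpG (adjusted p = 0.00176) and 2.99 under PBS. The call after CpG ended in a fit of the 6 arrays alone, while the interaction of -2.05 ± 0.31 (adjusted p = 0.000285) held in every alternative.

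Hepacam2, an adhesion molecule, lay below the array medians in both subsets after CpG, at 4.45, 4.81 and 5.41 in CpG CD8+ cDC, against 4.29, 4.13 and 4.50 in CpG CD11b+ cDC. In PBS CD8+ cDC it had measured 8.49, 8.72 and 8.77, against 5.56, 5.51 and 5.32 in PBS CD11b+ cDC. The lectin Clec4b2 gave the same picture, with 4.77, 4.82 and 5.54 in CpG CD8+ cDC, against 4.62, 4.45 and 4.60 in CpG CD11b+ cDC, and a difference of 3.67 under PBS. Their interactions were -2.61 ± 0.24 (adjusted p = 7.92e-07) and -3.18 ± 0.24 (adjusted p = 2.45e-08), the second being the lowest of all genes tested.

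The CD11b+ lineage kept its genes too. Of 24 tested cDC2 markers, 18 were lower in CpG CD8+ cDC, 17 of them in every alternative, and 1 was higher (2 without replicate 3 of CpG CD8+ cDC), with a median difference of -1.89. Under PBS 21 were lower and 1 higher, with a median of -1.75. The 1 higher gene in both conditions was Clec12a, a lectin that binds uric acid crystals, at 1.48 after CpG and 1.96 under PBS.

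Clec4a4, which encodes DCIR2, measured 3.95, 3.99 and 4.51 in CpG CD8+ cDC, against 9.07, 9.09 and 8.68 in CpG CD11b+ cDC. Its difference of -4.80 ± 0.22 (adjusted p = 1.85e-13), 27.8-fold, was the lowest of all genes tested, and it was -3.95 under PBS with an interaction that did not pass (adjusted p = 0.108). The neighbouring family members Clec4a1, Clec4a2 and Clec4a3 were lower by 3.96, 3.07 and 3.98. Probes of these near-identical lectins may share signal, and assignment within the family is uncertain.

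Sirpa, the receptor for the CD47 signal on other cells, measured 8.25, 8.22 and 8.70 in CpG CD8+ cDC, against 11.01, 11.16 and 11.21 in CpG CD11b+ cDC, a difference of -2.73 ± 0.18 (adjusted p = 4.95e-11) against -2.56 under PBS. Adgre1, a macrophage surface marker, measured 5.15, 5.38 and 5.55 in CpG CD8+ cDC, against 8.23, 8.88 and 8.93 in CpG CD11b+ cDC. Cd4, the co-receptor that splenic CD11b+ cDC also carry, measured 6.33, 6.96 and 7.39 in CpG CD8+ cDC, against 9.80, 9.85 and 9.35 in CpG CD11b+ cDC. None of the 3 overlapped between the subsets after CpG.

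Itgam, which encodes the sorting marker CD11b, measured 4.63, 4.76 and 5.11 in CpG CD8+ cDC, against 7.07, 7.23 and 7.82 in CpG CD11b+ cDC. Under PBS it measured 4.87, 4.45 and 5.27 in CD8+ cDC, against 8.54, 8.93 and 8.89 in CD11b+ cDC. The subsets stayed apart by -2.55 ± 0.24 after CpG and -3.92 under PBS, and the interaction of 1.38 ± 0.34 (adjusted p = 0.0158) ended without replicate 2 of PBS CD8+ cDC. Itgax, the CD11c chain shared by all sorted cells, measured 8.79, 9.20 and 9.91 in CpG CD8+ cDC, against 10.78, 10.84 and 10.92 in CpG CD11b+ cDC, a difference of -1.55 ± 0.18 against -0.76 under PBS. It is 1 of 8 tested pan-cDC and mature DC markers, of which 4 were lower and 1 higher in CpG CD8+ cDC. The 4 lower held in every alternative and the 1 higher did not. Their median difference was -0.54 after CpG and -0.29 under PBS.

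**Figure D2:**
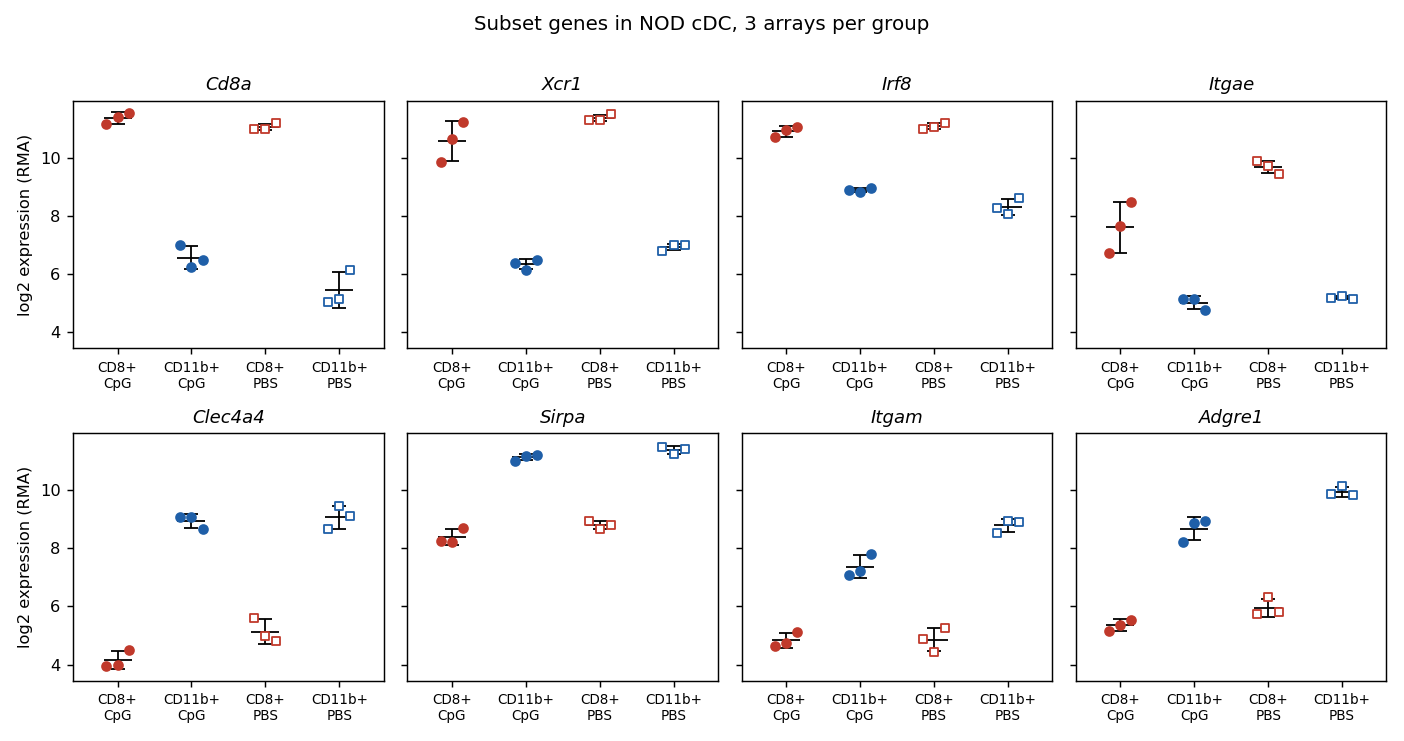
Log2 expression of 4 CD8+ lineage genes (Cd8a, Xcr1, Irf8, Itgae) and 4 CD11b+ lineage genes (Clec4a4, Sirpa, Itgam, Adgre1) on each array of 4 NOD groups, with bars at the group mean and error bars for the SD (n = 3). The subsets are apart for all 8 genes after CpG, and the gap after CpG is narrower than under PBS for Itgae and Itgam.

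A pair of CD11b+ markers no longer separated the subsets after CpG. Clec10a, a lectin for galactose-type sugars, measured 4.04, 4.01 and 4.71 in CpG CD8+ cDC, against 4.34, 4.12 and 3.97 in CpG CD11b+ cDC. All these values lay below the array medians and may be close to background, so a remaining difference could be missed. Its difference was -1.53 under PBS, with an interaction of 1.64 ± 0.39 (adjusted p = 0.0128). Irf4, a transcription factor needed for cDC2 function and raised on activation, measured 8.28, 8.38 and 7.84 in CpG CD8+ cDC, against 7.74, 7.80 and 7.95 in CpG CD11b+ cDC. Under PBS Irf4 measured 7.65, 7.46 and 7.17 in CD8+ cDC, against 8.19, 8.22 and 8.33 in CD11b+ cDC. Its difference was -0.82 under PBS and 0.33 after CpG (adjusted p = 0.0585), and the interaction of 1.15 ± 0.19 (adjusted p = 0.000767) was called. Lyz2, the lysozyme of myeloid cells, widened its gap, with 6.14, 6.67 and 7.32 in CpG CD8+ cDC, against 10.11, 10.17 and 10.76 in CpG CD11b+ cDC, an interaction of -1.63 ± 0.40 (adjusted p = 0.0152).

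Among 28 lineage transcription factors, 7 were higher and 9 lower in CpG CD8+ cDC, and 4 and 8 of these held in every alternative. The median difference was -0.07 and turned to 0.03 with quantile normalization. Irf8, the master regulator of cDC1, measured 10.71, 10.96 and 11.05 in CpG CD8+ cDC, against 8.91, 8.81 and 8.97 in CpG CD11b+ cDC, a difference of 2.01 ± 0.14 (adjusted p = 7.69e-11) against 2.78 under PBS. Id2, an inhibitor of E proteins in cDC1 development, was higher by 0.85 and Rbpj, the effector of Notch signalling, by 0.90, or by 0.44 with the mean of its probe sets.

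Lower in CpG CD8+ cDC were Zeb2, a repressor that favours cDC2 over cDC1 (-1.73), Tbx21, which encodes T-bet (-1.44), Runx3 (-1.33), Ikzf1, which encodes Ikaros (-0.88), and Spi1, which encodes PU.1 (-0.74). Irf2, a modulator of interferon responses, measured 9.35, 9.46 and 9.45 in CpG CD8+ cDC, against 10.25, 10.13 and 10.00 in CpG CD11b+ cDC. Under PBS its difference was -0.04, and the interaction of -0.67 ± 0.11 (adjusted p = 0.000761) was called. Batf3, the partner of IRF8, and Zbtb46, a factor shared by all cDC, showed differences of 0.07 (adjusted p = 0.616) and 0.16 (adjusted p = 0.296) after CpG. Zbtb32, a repressor of lymphocyte proliferation, measured 6.67, 6.56 and 6.48 in CpG CD8+ cDC, against 6.27, 6.61 and 7.40 in CpG CD11b+ cDC, with overlapping groups and a difference of -0.19 (adjusted p = 0.589).

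Beyond the lineage markers, the highest difference of all genes belonged to Apol7c, a member of the apolipoprotein L family, which measured 10.99, 10.23 and 10.08 in CpG CD8+ cDC, against 4.85, 4.79 and 5.32 in CpG CD11b+ cDC. It was higher by 5.45 ± 0.28 (adjusted p = 8.73e-13), 43.6-fold, and by 3.62 under PBS, with an interaction of 1.83 ± 0.39 (adjusted p = 0.00612). Apol genes have close paralogs, and the signal of 1 may include another.

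Dgkk, a diacylglycerol kinase, measured 10.47, 10.27 and 9.79 in CpG CD8+ cDC, against 5.31, 4.97 and 5.29 in CpG CD11b+ cDC. Under PBS it lay below or near the array medians in both, at 5.80, 5.42 and 5.79 in CD8+ cDC, against 4.48, 4.49 and 4.44 in CD11b+ cDC. The 3 CpG CD8+ cDC arrays thus stood far above those of the other NOD groups, and the interaction of 3.79 ± 0.25 (adjusted p = 2.48e-09) was the highest of all genes tested.

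Gclc, the catalytic subunit of the enzyme that starts glutathione synthesis, measured 10.63, 10.30 and 9.77 in CpG CD8+ cDC, against 6.31, 6.44 and 6.76 in CpG CD11b+ cDC, a difference of 3.73 ± 0.16 (adjusted p = 1.33e-13) against 1.52 under PBS. Arhgap8, a GTPase-activating protein, was higher by 3.47 after CpG and by 1.30 under PBS, and Ccng2, a cyclin of resting cells, by 3.06 after CpG and 1.45 under PBS. All 3 interactions passed, at 2.21, 2.18 and 1.61. Gpr141b, an orphan G protein-coupled receptor, was higher by 4.06 after CpG and 3.99 under PBS.

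On the CD11b+ side, Gpr141, another orphan receptor of that family, was lower in CpG CD8+ cDC by 4.07 ± 0.25 (adjusted p = 1.19e-11). Mmp12, the macrophage elastase, measured 5.85, 5.12 and 5.57 in CpG CD8+ cDC, against 9.40, 9.87 and 9.29 in CpG CD11b+ cDC, a difference of -4.0 ± 0.19 against -4.87 under PBS. Sucnr1, the receptor for succinate, was lower by 3.88, Cygb, the globin cytoglobin, by 3.82, and Pla2g7, which inactivates platelet-activating factor, by 3.80. All 5 genes were also lower under PBS, by 2.40 for Pla2g7 and more for the others.

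Receptors that sense microbes leaned to the CD11b+ side after CpG. Of 17 tested Toll-like receptors and partners, 10 were lower in CpG CD8+ cDC and 2 higher, 7 and 1 of them in every alternative, with a median difference of -0.49. Under PBS 5 were lower and 4 higher, with a median of 0.00, and the interaction was called downward for 6 and upward for none.

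Tlr9, the receptor for CpG DNA, measured 10.49, 10.64 and 10.25 in CpG CD8+ cDC, against 10.99, 10.94 and 10.58 in CpG CD11b+ cDC. Under PBS the values were 9.34, 9.25 and 9.40 in CD8+ cDC, against 9.81, 9.59 and 9.86 in CD11b+ cDC. Within each subset all CpG arrays lay above all PBS arrays. The difference was -0.38 ± 0.11 after CpG (adjusted p = 0.00898), a call that ended without replicate 3 of CpG CD8+ cDC, without replicate 1 or replicate 2 of CpG CD11b+ cDC, and in a fit of the 6 arrays alone. The interaction was 0.04 ± 0.16 (adjusted p = 0.908).

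Tlr7, a sensor of single-stranded RNA, measured 6.33, 7.32 and 6.61 in CpG CD8+ cDC, against 9.30, 9.45 and 8.82 in CpG CD11b+ cDC, a difference of -2.44 ± 0.28 against -2.84 under PBS. Tlr1 and Tlr6, which pair with TLR2 to bind bacterial lipopeptides, were lower by 2.26 and 1.49 after CpG, with differences of -1.01 and -0.44 under PBS and interactions of -1.25 and -1.05. Unc93b1, the chaperone that carries TLR3, TLR7 and TLR9 to endosomes, measured 9.98, 10.52 and 10.69 in CpG CD8+ cDC, against 11.31, 11.40 and 11.21 in CpG CD11b+ cDC, while under PBS the difference was 0.00. Its interaction of -0.91 ± 0.18 (adjusted p = 0.00385) passed. Ly96, which encodes the TLR4 partner MD-2, was higher in CpG CD8+ cDC by 0.96.

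Of 14 cytosolic sensors of nucleic acids, 7 were lower and 1 higher in CpG CD8+ cDC, 5 of the 7 in every alternative, with a median of -0.39. Aim2, an inflammasome sensor of DNA, measured 8.87, 8.73 and 9.03 in CpG CD8+ cDC, against 9.95, 9.75 and 9.72 in CpG CD11b+ cDC, while its difference under PBS was 0.22 (interaction -1.15 ± 0.17, adjusted p = 0.000263). Sting1, the adaptor for cyclic dinucleotides, was lower by 1.57. Ddx58, which encodes RIG-I, a sensor of viral RNA, was lower by 1.13 after CpG and by 2.16 under PBS, with an interaction of 1.03 ± 0.24 (adjusted p = 0.0113).

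For some interferon-stimulated genes that differed under PBS, the subsets drew together after CpG. Of 43 tested type I interferon-stimulated genes, 21 were lower and 2 higher in CpG CD8+ cDC, 13 and 1 in every alternative, with a median difference of -0.36. The 2 higher members became 1 without replicate 3 of CpG CD11b+ cDC. Under PBS 17 were lower and 7 higher, with a median of -0.30. The interaction was called upward for 10 and downward for 5 members, 6 and 3 in every alternative.

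Ifit3, an inhibitor of viral translation, measured 11.33, 11.24 and 10.32 in CpG CD8+ cDC, against 12.13, 12.04 and 11.79 in CpG CD11b+ cDC. Its PBS values were 4.69, 4.78 and 5.11 in CD8+ cDC, against 8.38, 8.24 and 8.02 in CD11b+ cDC. PBS CD8+ cDC lay below the array medians and both CpG groups far above them, so a gap of -3.36 under PBS narrowed to -1.03 ± 0.25 (adjusted p = 0.00205), with an interaction of 2.33 ± 0.35 (adjusted p = 0.000255). Its probes may also read the close copy Ifit3b.

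Rtp4, a receptor transporter protein induced by interferon, measured 10.26, 10.28 and 9.46 in CpG CD8+ cDC, against 11.21, 11.14 and 10.85 in CpG CD11b+ cDC, with a difference of -1.07 ± 0.24 against -3.29 under PBS. Oas2, an RNA-activated synthetase that switches on RNase L, was lower by 1.5 after CpG and 2.75 under PBS. Both interactions passed, at 2.22 and 1.26. Oas1a, of the same family, was lower by 1.07 after CpG and 1.42 under PBS, and Ddx60, a helicase that supports RIG-I, by 1.20 after CpG and 2.47 under PBS.

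Gbp3, a guanylate-binding GTPase induced by interferons, changed side. It measured 8.21, 8.46 and 8.17 in CpG CD8+ cDC, against 9.83, 9.53 and 9.04 in CpG CD11b+ cDC, and under PBS 8.27, 8.03 and 8.17 in CD8+ cDC, against 7.07, 7.56 and 7.70 in CD11b+ cDC. CD8+ cDC held a similar level in both conditions, and CD11b+ cDC lay below it under PBS and above it after CpG, giving -1.19 ± 0.17 (adjusted p = 8.56e-06) and an interaction of -1.90 ± 0.25 (adjusted p = 4.64e-05). Trim21, an antibody receptor of the cytosol, was lower after CpG by 0.85 with a difference of 0.37 under PBS and an interaction of -1.22.

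Promoters are shown for the 4 interferon-stimulated genes that were lower in CpG CD8+ cDC in every alternative and whose 250 bases upstream of the RefSeq start hold at least 2 matches to GAAANNGAAA, the core of the interferon-stimulated response element bound by ISGF3 and IRF proteins. Matches on either strand are in capitals, and matches may overlap, as they do in Oas1a and Gbp3. Sequences are RefSeq's for build GRCm38.p6, 5′ to 3′ on the gene's strand, from chr19:34583279-34583528 (+), chr5:120907526-120907775 (-), chr8:61927837-61928086 (+) and chr3:142559794-142560043 (+).
Ifit3: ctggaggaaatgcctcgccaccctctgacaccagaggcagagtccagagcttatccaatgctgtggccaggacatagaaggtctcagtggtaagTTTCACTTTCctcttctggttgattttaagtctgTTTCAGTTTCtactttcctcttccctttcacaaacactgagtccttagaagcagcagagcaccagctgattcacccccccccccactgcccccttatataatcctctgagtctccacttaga
Oas1a: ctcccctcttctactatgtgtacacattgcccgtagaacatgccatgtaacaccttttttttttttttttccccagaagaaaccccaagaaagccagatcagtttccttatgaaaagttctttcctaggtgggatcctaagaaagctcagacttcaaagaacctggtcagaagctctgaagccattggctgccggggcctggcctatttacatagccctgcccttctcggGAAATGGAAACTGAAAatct
Ddx60: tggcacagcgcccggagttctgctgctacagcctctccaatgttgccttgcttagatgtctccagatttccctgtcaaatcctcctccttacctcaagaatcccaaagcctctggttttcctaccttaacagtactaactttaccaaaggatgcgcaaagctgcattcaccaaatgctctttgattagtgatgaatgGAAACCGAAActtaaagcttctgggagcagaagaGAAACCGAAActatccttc
Gbp3: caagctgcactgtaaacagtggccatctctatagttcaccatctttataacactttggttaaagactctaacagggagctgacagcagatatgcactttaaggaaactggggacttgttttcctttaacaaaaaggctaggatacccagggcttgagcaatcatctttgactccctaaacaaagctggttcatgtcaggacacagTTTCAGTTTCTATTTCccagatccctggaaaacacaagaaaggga
A gene was counted if any of its promoters held at least 1 match in the 250 bases. Of all genes with a promoter sequence, 936 of 27025 (3.46%) were counted. Of those tested, 307 of 9117 (3.37%) were counted, and of the interferon-stimulated list 14 of 33 (42.4%). The matches describe these letters only, and binding was not measured.

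**Figure D3:**
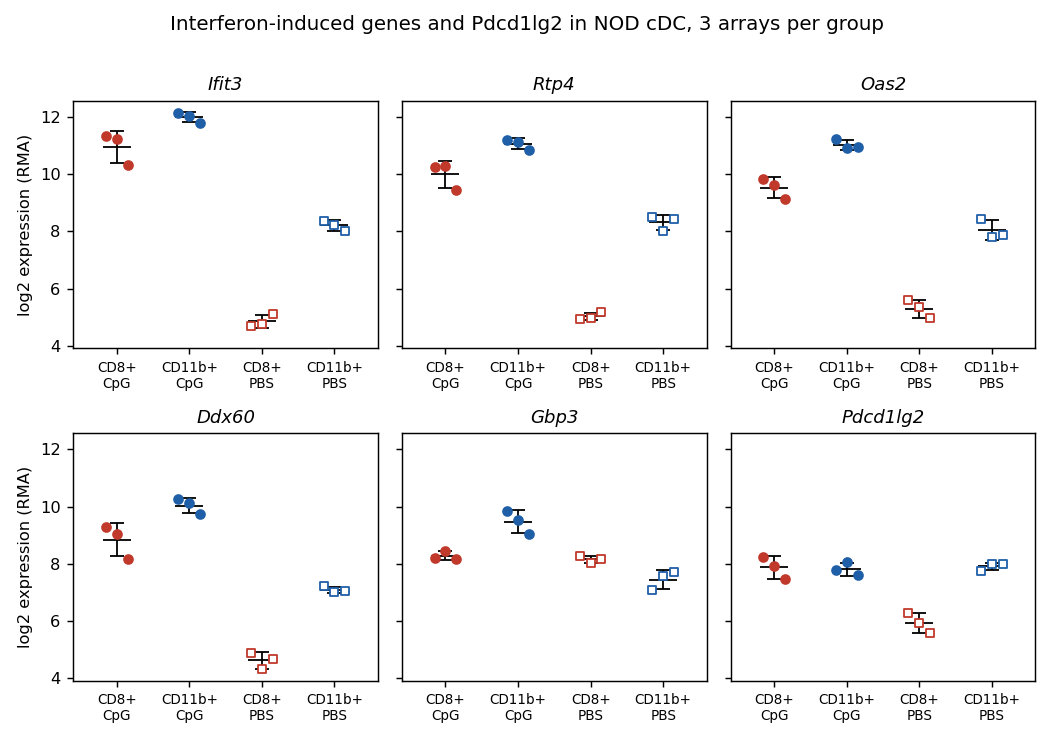
Log2 expression of Ifit3, Rtp4, Oas2, Ddx60, Gbp3 and Pdcd1lg2 on each array of 4 NOD groups, with bars at the group mean and error bars for the SD (n = 3). For Ifit3, Rtp4, Oas2 and Ddx60 the CpG groups lie closer together than the PBS groups, for Gbp3 the order of the subsets differs between the conditions, and for Pdcd1lg2 the CpG groups overlap.

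Among 17 interferons, interferon receptors and STATs, 3 were higher and 5 lower in CpG CD8+ cDC, with a median of 0.09 that turned to -0.07 with the stricter filter. The count of 5 was 3 without replicate 2 of CpG CD11b+ cDC. Stat4, which carries the signal of IL-12 and type I interferon, measured 10.30, 9.60 and 8.59 in CpG CD8+ cDC, against 7.94, 7.45 and 7.26 in CpG CD11b+ cDC. In the PBS arrays it measured 6.23, 5.84 and 5.89 in CD8+ cDC, against 6.71, 7.18 and 6.78 in CD11b+ cDC. It was higher by 1.95 ± 0.27 after CpG, with -0.90 under PBS (adjusted p = 0.0154, a call that did not hold in every alternative) and an interaction of 2.85 ± 0.38 (adjusted p = 5.78e-05). Ifngr1, the ligand-binding chain of the interferon γ receptor, measured 8.49, 8.92 and 9.62 in CpG CD8+ cDC, against 10.56, 10.57 and 10.39 in CpG CD11b+ cDC, with 0.02 under PBS and an interaction of -1.52 ± 0.25. Irf7, the amplifier of interferon production, measured 12.07, 12.16 and 11.92 in CpG CD8+ cDC, against 12.31, 12.20 and 11.78 in CpG CD11b+ cDC, with overlapping groups.

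Genes for loading peptides on MHC class I were more often higher than lower in CD8+ cDC after CpG. Of 18 tested members, 11 were higher and 2 lower, with a median of 0.29 against 0.46 under PBS, when 12 were higher and none lower. Only 5 of the 11 held in every alternative, and the count was 7 without replicate 1 and 6 without replicate 2 of CpG CD8+ cDC. The 2 lower members became 1 without replicate 1 of CpG CD8+ cDC and without replicate 1 or replicate 2 of CpG CD11b+ cDC. Tap2, a subunit of the peptide transporter into the endoplasmic reticulum, measured 10.11, 9.70 and 9.45 in CpG CD8+ cDC, against 9.21, 8.82 and 8.70 in CpG CD11b+ cDC, a difference of 0.84 ± 0.15. Tapbpl, a peptide editor, was higher by 0.95. B2m, the shared light chain of class I, differed by -0.08 (adjusted p = 0.294).

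Of 14 members of MHC class II presentation, 6 were lower and 1 higher in CpG CD8+ cDC, 4 of the 6 in every alternative, with a median of -0.21. H2-Oa, a chain of the inhibitor of class II peptide exchange, measured 9.14, 9.76 and 9.87 in CpG CD8+ cDC, against 11.12, 11.22 and 10.96 in CpG CD11b+ cDC, a difference of -1.51 ± 0.14 against -0.50 under PBS and an interaction of -1.01 ± 0.20. Ciita, the class II transactivator, was lower by 0.90 and Ctss, the protease that trims the invariant chain, by 0.53. The class II chains H2-Aa, H2-Ab1 and H2-Eb1 differed by -0.13, -0.17 and -0.12, and Cd74, the invariant chain, by 0.01, and none of the 4 was called.

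More maturation genes were higher than lower in CD8+ cDC in both conditions. Of 26 tested co-stimulation and maturation genes, 15 were higher and 1 lower in CpG CD8+ cDC, 12 of the 15 in every alternative, with a median of 0.45 in both conditions. The 1 lower member became 2 without replicate 3 of CpG CD8+ cDC. Ccr7, which guides cDC to the T cell zone, measured 12.56, 12.31 and 11.99 in CpG CD8+ cDC, against 11.94, 11.44 and 11.08 in CpG CD11b+ cDC. The PBS arrays gave 10.71, 10.19 and 9.93 in CD8+ cDC, against 8.99, 8.82 and 9.09 in CD11b+ cDC. The difference was 0.80 ± 0.19 after CpG (adjusted p = 0.00217) and 1.31 under PBS. Fscn1, the actin bundler of mature cDC, was higher by 1.02 after CpG and 1.33 under PBS.

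Il15ra, which presents IL-15 to T and NK cells, measured 11.15, 10.32 and 10.20 in CpG CD8+ cDC, against 9.21, 8.58 and 8.65 in CpG CD11b+ cDC, and its difference was 1.74 in both conditions. Cd200, an inhibitory ligand, was higher by 1.16, Cd70, the ligand of CD27 on T cells, by 0.91, and Icam1, an adhesion molecule, by 0.61. Cd80, the ligand of CD28, measured 10.02, 9.64 and 9.04 in CpG CD8+ cDC, against 9.39, 9.28 and 8.94 in CpG CD11b+ cDC, and did not pass (adjusted p = 0.0797). Cd86, of the same family, differed by 0.49, and by 0.31 without replicate 3 of CpG CD11b+ cDC, and its call ended in a fit of the 6 arrays alone.

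Among 19 inhibitory and tolerance-associated genes, 4 were higher and 7 lower in CpG CD8+ cDC, 4 and 5 in every alternative, with a median of 0.07 that turned to -0.05 without replicate 3 of CpG CD11b+ cDC. Aldh1a2, which makes retinoic acid, was higher by 1.00, and Btla, an inhibitory receptor, by 1.39. Cd300a, an inhibitory receptor for membrane lipids, was lower by 1.99. Pdcd1lg2, which encodes the PD-1 ligand PD-L2, measured 8.25, 7.91 and 7.46 in CpG CD8+ cDC, against 7.77, 8.06 and 7.61 in CpG CD11b+ cDC. In PBS CD8+ cDC it had measured 6.27, 5.92 and 5.59, against 7.75, 7.98 and 7.99 in PBS CD11b+ cDC. The subsets overlapped after CpG at 0.06 (adjusted p = 0.838), against -1.98 under PBS, an interaction of 2.04 ± 0.27 (adjusted p = 7.33e-05). Itgb8, a chain of an integrin that activates TGFβ, was lower after CpG by 0.91 with an interaction of -1.19.

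Cytokine genes lay mostly on the CD11b+ side after CpG. Of 16 tested cytokine genes, 10 were lower and 4 higher in CpG CD8+ cDC, 8 and 3 in every alternative, with a median of -0.91 against -0.33 under PBS, when 5 were lower and 3 higher. Il12b, the p40 chain of IL-12 and IL-23, measured 8.10, 8.04 and 8.30 in CpG CD8+ cDC, against 10.00, 9.31 and 10.21 in CpG CD11b+ cDC. Under PBS the values were 6.74, 6.39 and 6.68 in CD8+ cDC, against 6.46, 6.02 and 6.28 in CD11b+ cDC. All CpG CD11b+ cDC arrays lay above all CpG CD8+ cDC arrays, by 1.69 ± 0.17 (adjusted p = 3.19e-08), with 0.35 the other way under PBS (adjusted p = 0.155) and an interaction of -2.04 ± 0.24 (adjusted p = 1.35e-05).

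Il1b, the inflammatory cytokine IL-1β, measured 6.61, 7.72 and 8.11 in CpG CD8+ cDC, against 10.03, 10.03 and 9.85 in CpG CD11b+ cDC. Its PBS values were 9.37, 9.56 and 9.22 in CD8+ cDC, against 9.92, 10.30 and 9.89 in CD11b+ cDC. CD11b+ cDC held a similar level in both conditions and CpG CD8+ cDC were the low group, with a difference of -2.49 ± 0.24 and an interaction of -1.84 ± 0.35 (adjusted p = 0.00213). Ltb, a lymphotoxin chain, was lower by 2.42, Il1rn, the antagonist of the IL-1 receptor, by 1.46, Il18 by 1.27, and Tnfsf10, the death ligand TRAIL, by 1.05.

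Il27, the p28 chain of IL-27, went the other way. It measured 10.06, 9.84 and 9.06 in CpG CD8+ cDC, against 8.47, 8.33 and 8.53 in CpG CD11b+ cDC, and under PBS 7.20, 7.0 and 6.92 in CD8+ cDC, against 6.97, 6.99 and 7.08 in CD11b+ cDC. It was higher by 1.21 ± 0.18 after CpG with 0.03 under PBS, an interaction of 1.18 ± 0.26 (adjusted p = 0.00668). Ebi3, its partner chain, was higher by 0.60 after CpG and 0.58 under PBS.

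Il15, a growth factor for memory CD8 T and NK cells, measured 10.28, 10.13 and 9.66 in CpG CD8+ cDC, against 9.47, 9.19 and 8.38 in CpG CD11b+ cDC. In PBS CD8+ cDC it had measured 8.51, 8.03 and 7.88, against 5.66, 5.55 and 5.72 in PBS CD11b+ cDC. The lead of CD8+ cDC was 1.01 ± 0.20 after CpG and 2.49 under PBS, an interaction of -1.49 ± 0.29 (adjusted p = 0.00281). Il6 and Tnf overlapped between the subsets after CpG, at 7.38, 7.70 and 7.09 for Il6 in CpG CD8+ cDC, against 7.40, 7.66 and 7.38 in CpG CD11b+ cDC, and with differences of -0.09 (adjusted p = 0.762) and -0.04 (adjusted p = 0.902).

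**Figure D4:**
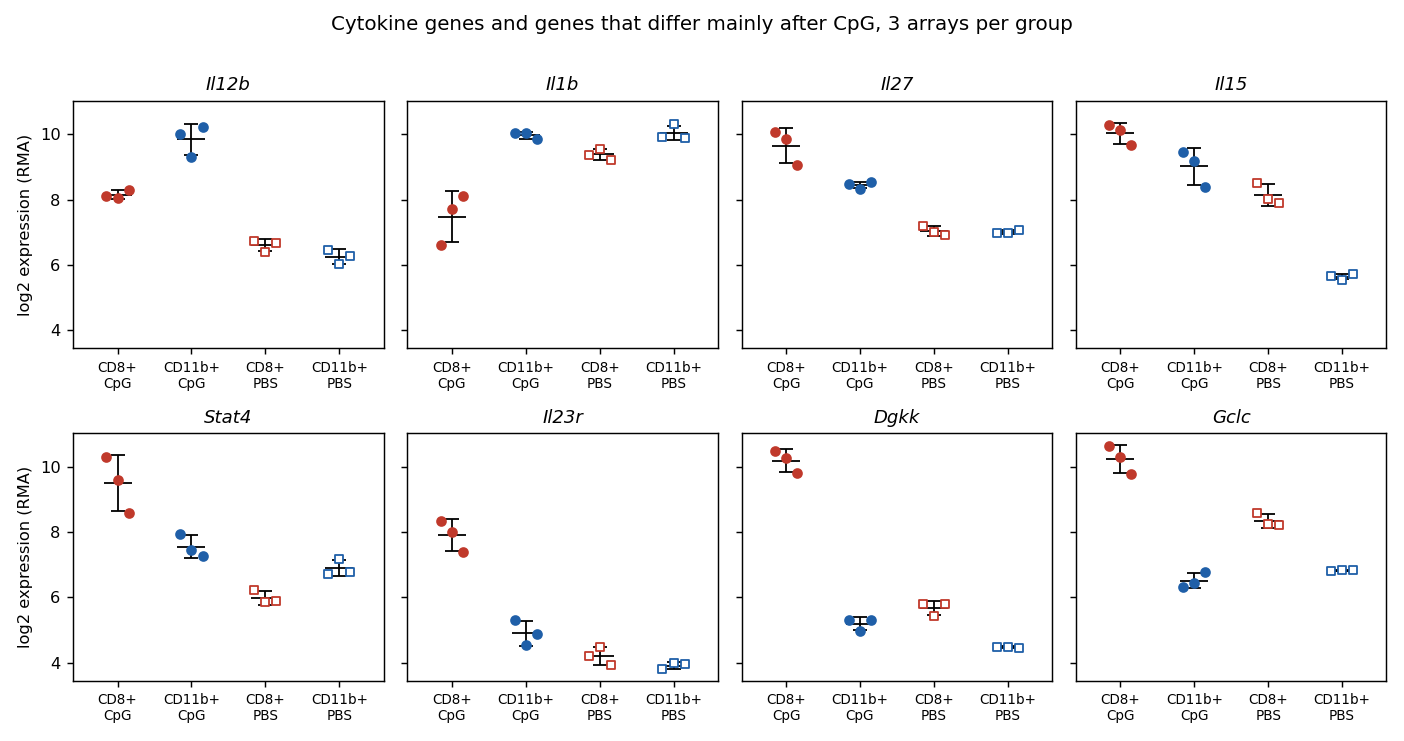
Log2 expression of Il12b, Il1b, Il27, Il15, Stat4, Il23r, Dgkk and Gclc on each array of 4 NOD groups, with bars at the group mean and error bars for the SD (n = 3). The CpG groups lie farther apart than the PBS groups for 7 of the 8 genes, with CpG CD11b+ cDC above for Il12b and Il1b and CpG CD8+ cDC above for Il27, Stat4, Il23r, Dgkk and Gclc, while for Il15 they lie closer together.

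Chemokine genes were divided, with 6 of 18 higher and 7 lower in CpG CD8+ cDC, 5 and 6 in every alternative, a median of -0.23 (0.03 with no filter) against 0.34 under PBS, and 8 interactions downward against none upward. Ccl22, which attracts regulatory T cells through CCR4, measured 9.54, 9.40 and 9.51 in CpG CD8+ cDC, against 6.88, 6.40 and 6.63 in CpG CD11b+ cDC, a difference of 2.84 ± 0.19 against 2.57 under PBS. Cxcl9, a ligand of CXCR3 on effector T cells, was higher by 0.75 after CpG and by 2.78 under PBS, an interaction of -2.04 ± 0.22 (adjusted p = 6.31e-06). Ccl3, an inflammatory chemokine, measured 7.0, 8.19 and 8.30 in CpG CD8+ cDC, against 10.36, 10.53 and 9.90 in CpG CD11b+ cDC. Ccl4, another inflammatory chemokine, was lower by 1.96 and Ccl12, a ligand of CCR2, by 1.58, with differences of -0.20 and 0.24 under PBS and a called interaction for Ccl12 of -1.83 ± 0.32.

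Of 29 cytokine receptor genes, 9 were higher and 12 lower in CpG CD8+ cDC, 4 and 9 in every alternative, and without replicate 2 of CpG CD11b+ cDC the 9 became 5. Il23r, the receptor chain for IL-23, measured 8.34, 8.00 and 7.39 in CpG CD8+ cDC, against 5.30, 4.53 and 4.87 in CpG CD11b+ cDC. Under PBS it lay below the array medians in both, at 4.19, 4.48 and 3.92 in CD8+ cDC, against 3.79, 3.97 and 3.95 in CD11b+ cDC. It was 8.08-fold higher in CpG CD8+ cDC, with an interaction of 2.72 ± 0.31 (adjusted p = 1.09e-05). Csf2rb, the shared β chain for GM-CSF, IL-3 and IL-5, was higher by 0.83.

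Lower in CpG CD8+ cDC were Il1r2, the decoy receptor for IL-1 (-2.63), Csf1r, the receptor for macrophage colony-stimulating factor (-1.99), Il6ra, the ligand-binding chain of the IL-6 receptor (-1.88), Csf3r, the receptor for granulocyte colony-stimulating factor (-1.03), and Il12rb2, a chain of the IL-12 receptor (-0.97). All 5 were also lower under PBS. Cxcr4, 1 of 16 chemokine receptor genes of which 4 were higher and 5 lower, measured 8.88, 8.86 and 9.30 in CpG CD8+ cDC, against 9.80, 9.48 and 9.91 in CpG CD11b+ cDC, with 0.24 under PBS and an interaction of -0.96 ± 0.20.

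Fc and complement receptors were low in CD8+ cDC, with 7 of 11 lower and none higher after CpG, all 7 in every alternative, and a median of -1.04. Fcgr4, an activating receptor for IgG, measured 5.57, 6.88 and 6.92 in CpG CD8+ cDC, against 8.60, 8.88 and 8.60 in CpG CD11b+ cDC. Fcer1g, the signalling chain of these receptors, was lower by 1.30 and Fcgr1, the high-affinity receptor, by 1.04. Of 21 C-type lectins and endocytic receptors, 8 were higher and 7 lower, 6 and 7 in every alternative. Ly75, which encodes DEC-205, measured 10.93, 10.16 and 10.04 in CpG CD8+ cDC, against 9.06, 8.51 and 8.73 in CpG CD11b+ cDC, and Clec4n, which encodes Dectin-2, was lower by 2.43. Integrins and adhesion genes were split, 9 of 23 higher and 8 lower, with Itgb7 and Itgb2, the β7 and β2 chains, lower by 1.55 and 1.64.

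Genes of the inflammasome and the IL-1 pathway lay on the CD11b+ side, with 12 of 20 lower and 2 higher in CpG CD8+ cDC, 9 of the 12 in every alternative, and a median of -0.57 against -0.15 under PBS. The 2 higher members became 1 without replicate 1 of CpG CD8+ cDC or replicate 1 or replicate 3 of CpG CD11b+ cDC, and 0 without replicate 2 of CpG CD11b+ cDC. Nlrp3, a sensor that assembles the inflammasome, measured 5.12, 5.98 and 6.28 in CpG CD8+ cDC, against 7.46, 8.09 and 7.65 in CpG CD11b+ cDC. Nlrc4, a partner of the sensors of flagellin, was lower by 1.67 and Casp1, the protease that matures IL-1β, by 1.06. A separate list of death receptors, BCL-2 family and necroptosis genes was mixed, with 6 of 18 higher and 4 lower in CpG CD8+ cDC. Of these 4 and 4 held in every alternative, and the median was 0.09. Casp8, a protease of death receptor signalling, was lower by 0.93 with -0.22 under PBS and an interaction of -0.72 ± 0.15, and Fas, the death receptor itself, was higher by 1.90.

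Among 14 prostaglandin and leukotriene genes, 7 were lower and 2 higher, with a median of -0.64, and the stricter filter left 1 higher. Ptger4, the EP4 receptor for prostaglandin E2, measured 10.82, 10.27 and 9.83 in CpG CD8+ cDC, against 8.84, 8.43 and 8.39 in CpG CD11b+ cDC, a difference of 1.75 ± 0.19 (adjusted p = 1.04e-07) against 0.70 under PBS. Ptgs2, the inducible cyclooxygenase that makes the precursor, measured 6.89, 6.96 and 6.91 in CpG CD8+ cDC, against 8.26, 8.72 and 8.25 in CpG CD11b+ cDC. Pla2g4a, the phospholipase that releases arachidonic acid, was lower by 2.08 after CpG and 1.23 under PBS, an interaction of -0.86 ± 0.20. The receptor was thus the higher gene in CD8+ cDC and these 2 synthesis genes the lower ones.

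Of 17 NF-kB subunits and inhibitors, 8 were higher and 3 lower in CpG CD8+ cDC, with a median of 0.34, and 2 and 3 of them held in every alternative. The count of 8 was 4 without replicate 1 of CpG CD8+ cDC, 3 without replicate 3 and 5 without replicate 2 of CpG CD11b+ cDC, and 4 with median centring of the arrays. Tnfaip3, which encodes the inhibitor A20, was higher by 0.99, and Bcl3 and Nfkbiz, nuclear IκB proteins, were lower by 0.60 and 0.87. Rel, the subunit c-Rel, and Relb overlapped between the subsets, at differences of -0.05 and -0.08.

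Oxidative phosphorylation had 2 of 25 members lower and none higher, glycolysis 5 of 16 higher and 2 lower, and cholesterol synthesis 3 of 16 higher and 4 lower. Without replicate 1, 2 or 3 of CpG CD8+ cDC the lower oxidative phosphorylation genes numbered 0, 4 and 8, without replicate 2 or replicate 3 of CpG CD11b+ cDC they numbered 1, and without replicate 1 of CpG CD8+ cDC 1 was higher. The 4 lower cholesterol genes became 2 without replicate 1 of CpG CD8+ cDC. Pfkfb3, a driver of glycolysis, was higher by 0.94, and Idi1, an isomerase of the mevalonate pathway, measured 7.88, 8.47 and 7.91 in CpG CD8+ cDC, against 6.89, 7.27 and 7.02 in CpG CD11b+ cDC, with -0.53 under PBS and an interaction of 1.56 ± 0.20. Of 32 cell cycle genes, 5 were lower and none higher, and this count ran from 1 without replicate 1 to 8 without replicate 2 of CpG CD8+ cDC and was 2 without replicate 1 or replicate 2 of CpG CD11b+ cDC. Among 22 immediate-early and digestion-stress genes, which mark handling of the tissue, 4 were higher and 5 lower. The part of handling in other differences was not tested.

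**Figure D5:**
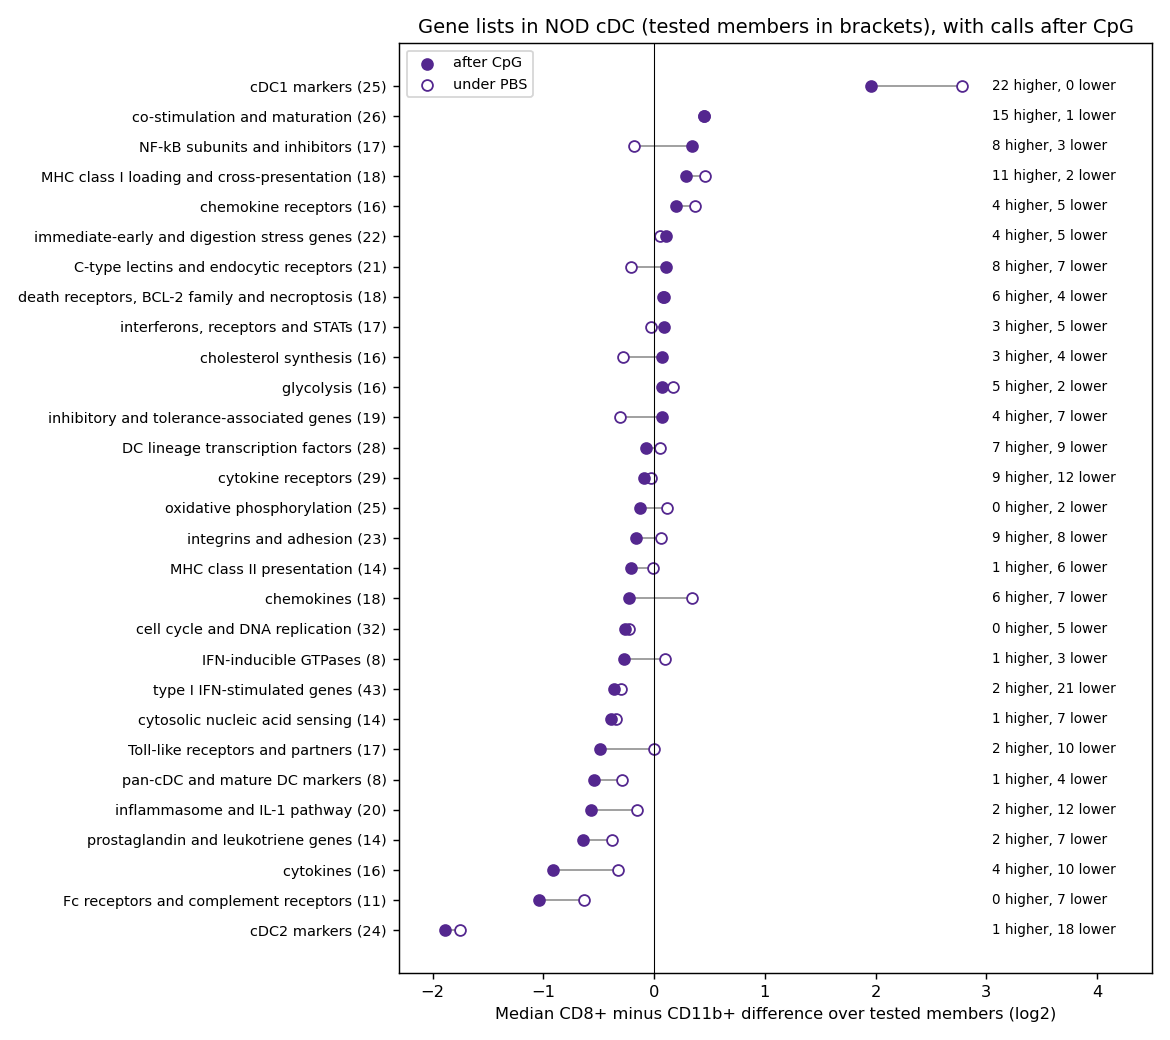
Median difference (CD8+ minus CD11b+ cDC, log2) of gene lists with at least 8 tested members, after CpG (filled points) and under PBS (open points). Counts of members called higher and lower after CpG stand at the right. Markers of other cell types and the candidate genes of diabetes regions are not drawn. The cDC1 and cDC2 markers lie farthest from 0 at 1.96 and -1.89 after CpG. Fc and complement receptors lie at -1.04 and cytokines at -0.91.

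Some differences of resting cells were small or no longer called after CpG. The interaction was called and the difference after CpG under 0.5 for 117 genes higher and 45 lower under PBS. These counts include genes still called after CpG. With the interaction called, 99 genes higher and 34 lower under PBS were not called after CpG. Itga8, the α8 integrin chain, measured 4.65, 4.73 and 5.44 in CpG CD8+ cDC, against 4.61, 4.65 and 4.60 in CpG CD11b+ cDC, after 7.81, 7.67 and 8.12 in PBS CD8+ cDC, against 5.49, 5.43 and 5.20 in PBS CD11b+ cDC. Ly6e, an interferon-induced surface protein, took the opposite course, at 12.89, 13.03 and 12.98 in CpG CD8+ cDC, against 12.71, 12.81 and 12.75 in CpG CD11b+ cDC, after 12.29, 12.44 and 12.57 in PBS CD8+ cDC, against 9.87, 10.38 and 11.35 in PBS CD11b+ cDC. For Itga8 the CpG groups met at low values and for Ly6e at high values. Ifi205, a DNA-binding protein of the Ifi200 family whose members are near copies of each other, differed by 1.53 under PBS and -0.05 after CpG, an interaction of -1.58 ± 0.21.

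Other differences emerged after CpG. The interaction was called in the direction of the difference after CpG, with under 0.5 under PBS, for 174 genes higher after CpG and for 221 lower. Gyg, which primes glycogen synthesis, measured 10.38, 10.25 and 9.79 in CpG CD8+ cDC, against 7.93, 7.97 and 7.79 in CpG CD11b+ cDC, with 0.43 under PBS. Sirt1, a deacetylase, was higher by 1.60 with 0.07 under PBS. Ptafr, the receptor for platelet-activating factor, measured 7.61, 7.83 and 7.71 in CpG CD8+ cDC, against 9.63, 9.39 and 9.25 in CpG CD11b+ cDC, with -0.02 under PBS and an interaction of -1.69 ± 0.16 (adjusted p = 9.15e-07). Fgl2, a fibrinogen-like protein of activated immune cells, and Siglec1, a lectin for sialic acids, were lower by 1.81 and 1.45 with -0.31 and -0.19 under PBS.

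A called difference turned into a called difference of the other sign, with the interaction called, for 15 genes higher under PBS and 8 lower under PBS. Besides Gbp3, Stat4 and Idi1, the last 2 with PBS calls that did not hold in every alternative, Abca13, a lipid transporter of the ABC family, turned to lower after CpG. It measured 6.89, 7.51 and 7.57 in CpG CD8+ cDC, against 8.72, 9.25 and 9.15 in CpG CD11b+ cDC, and under PBS 6.45, 6.29 and 7.20 in CD8+ cDC, against 5.16, 5.35 and 6.14 in CD11b+ cDC. Anxa2, a membrane-binding annexin, turned to higher, at 0.74 after CpG and -0.87 under PBS.

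The arrays measure sorted populations, in which fewer cells of a type and less RNA per cell cannot be told apart, and markers of other cell types were read beside the results. Of 20 tested natural killer (NK) cell markers, 9 were lower and 1 higher in CpG CD8+ cDC, with a mean level per array of 5.76 to 6.02 in CpG CD8+ cDC and 6.40 to 6.54 in CpG CD11b+ cDC, and in each of these groups 10 members lay below the array median. Ncr1, the defining receptor NKp46, measured 4.73, 4.38 and 4.21 in CpG CD8+ cDC, against 4.92, 5.81 and 6.06 in CpG CD11b+ cDC with no overlap. Its values in CpG CD8+ cDC, and the lowest in CpG CD11b+ cDC, lay below the array medians. Other NK cell markers, Klrb1c (-0.07), Klra8 (-0.37), Klrc1 (0.06) and Nkg7 (-0.12), were not called. Monocyte markers were lower in 6 of 9 with levels of 6.60 to 7.05 in CpG CD8+ cDC and 7.43 to 7.61 in CpG CD11b+ cDC. Only 6 of 15 neutrophil markers on the array were tested, and 4 of these were lower. The 4 became 1 with the stricter filter, and the list median of -1.17 became 0.46. Of the 15, 12 lay below the array median in CpG CD8+ cDC and 9 in CpG CD11b+ cDC. Markers of plasmacytoid DC were higher in 8 of 13 and lower in 1, at 7.69 to 8.20 in CpG CD8+ cDC and 7.49 to 7.72 in CpG CD11b+ cDC, and the 8 became 4 without replicate 1 of CpG CD11b+ cDC and 5 without replicate 2 or replicate 3 of CpG CD8+ cDC.

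B cell markers were at 6.82 to 7.79 in CpG CD8+ cDC and 6.59 to 7.61 in CpG CD11b+ cDC, with 1 of 16 higher and 3 lower. The 3 lower became 1 without replicate 2 or replicate 3 of CpG CD11b+ cDC, and the 1 higher became 0 without replicate 2 of CpG CD8+ cDC or replicate 1 of CpG CD11b+ cDC. T cell markers were higher in 4 of 11 and lower in 1, at 5.99 to 6.14 in CpG CD8+ cDC and 5.59 to 5.78 in CpG CD11b+ cDC, and the T cell receptor subunit Cd3e measured 6.66, 7.18 and 6.74 in CpG CD8+ cDC, against 5.62, 5.66 and 5.94 in CpG CD11b+ cDC. Red pulp macrophage markers were higher in 2 of 15 and lower in 4. The 4 lower became 2 without replicate 1 of CpG CD8+ cDC or any 1 array of CpG CD11b+ cDC, and the 2 higher became 1 without replicate 2 or replicate 3 of CpG CD8+ cDC or any 1 array of CpG CD11b+ cDC. Several monocyte and neutrophil markers are also expressed by CD11b+ cDC. The part of these cell types in the differences above was not tested.

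Of 11 tested candidate genes of diabetes regions in NOD mice, 5 were lower and none higher in CpG CD8+ cDC, with 3 lower under the stricter filter, which did not test the other 2, and 1 higher without replicate 3 of CpG CD8+ cDC and in 5 other alternatives. Ptpn22, a phosphatase that dampens antigen receptor signals, measured 7.51, 8.00 and 8.06 in CpG CD8+ cDC, against 9.89, 9.74 and 9.70 in CpG CD11b+ cDC, a difference of -1.92 ± 0.16 against -1.02 under PBS and an interaction of -0.90 ± 0.22 (adjusted p = 0.0157). Cd101, an inhibitory surface receptor, drew closer, with -0.70 after CpG and -2.51 under PBS, an interaction of 1.81 ± 0.21 (adjusted p = 1.28e-05). The other 3 were Icos, a co-stimulatory receptor (-1.80), Cd93, a receptor linked to uptake of dying cells (-1.39), and Fcgr1.

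In B6 mice after CpG 4204 genes (37.0%) differed between the subsets. Of the NOD calls after CpG, 991 of 1632 higher (60.7%) and 1709 of 2711 lower (63.0%) were called in the same direction in B6, and these were 68.5% and 62.0% of the B6 lists. The difference of the differences was called for 595 genes (5.24%), 280 (2.46%) with a higher value in NOD and 315 (2.77%) with a lower one. The count was 1055 without replicate 1 of NOD CpG CD8+ cDC. Apol7c differed by 5.45 in NOD and 0.79 in B6, an interaction of 4.65 (adjusted p = 8.16e-08), and Irf8 by 2.01 in NOD and 0.48 in B6, an interaction of 1.53. Cd207 differed by 2.08 in NOD and 0.29 in B6, and Mmp12 by -4.0 in NOD and -1.08 in B6. NK cell markers moved with strain here, at a mean level of 6.40 to 6.54 in CpG CD11b+ cDC of NOD mice and 8.73 to 9.75 in those of B6 mice, and their part in these strain differences was not tested. Whether NOD sequence variants lie in the probes used was not tested.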

How the data were processed

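The authors deposited log2 expression values of 24 arrays, for which the submitters' processing notes name RMA and Partek, with no version given in the sources used here. The array model is unsettled, since the probe IDs match the annotation of a different model from that in the labels. That annotation lists 23410 of the 35556 probe sets, 21789 with 1 gene symbol and 1621 with several. A further 12146 have no name here. Current symbols were found through the gene ID for 21698.

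For each of 999 genes with several probe sets, the one with the highest mean was used. Genes above their array's median on at least 3 of 24 arrays were kept. limma 3.58.1 in R 4.3.3 fitted 1 mean per group over all 8 groups (16 residual degrees of freedom) with eBayes and a mean trend, and p-values were adjusted by Benjamini-Hochberg within each of 5 contrasts at 0.05. All tests are two-sided. The fit was tested on simulated data with independent arrays of equal spread for each gene. Arrays of unequal spread were not simulated. The number of arrays limits the precision. Tables and figures used Python 3.11.15, pandas 2.3.3 and matplotlib 3.10.9.

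Genes named are the 20 highest and lowest called differences, up to 12 kept, turned or interacting genes and up to 10 of other classes in each direction, and members of 40 gene lists. The members and lists were chosen with earlier results of these data known. Alternatives were other filters, probe set rules, scalings, moderation, array weights, a fit of the compared groups alone, the replicate number as a block, and leaving out each array.

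The titles number the replicates in every group. Deviations of same-numbered arrays from their group means correlated at 0.349, 0.268 and 0.199 between the CpG subsets of NOD mice. Between the PBS subsets of NOD mice they correlated at 0.177, 0.103 and 0.152. Differently numbered arrays lay at -0.301 to 0.136 after CpG and -0.155 to 0.021 under PBS. The numbers may thus pair the arrays, but the labels do not say what a number stands for. The main fit left the replicate number out.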

Additional observations from a re-analysis of the deposited data

Results flagged for a closer look

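The subset difference itself changed with CpG for 767 genes in NOD mice by the interaction test. The 6 highest interactions among these that held in every alternative were those of Dgkk (3.79), Stat4 (2.85), Il23r (2.72), Ifit3 (2.33), Rtp4 (2.22) and Gclc (2.21), and the 6 lowest those of Clec4b2 (-3.18), Abca13 (-2.82), Hepacam2 (-2.61), Cd207 (-2.32), Itga8 (-2.17) and Tlr3 (-2.05).

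The subset difference after CpG differed between NOD and B6 mice for 595 genes by the test of that difference. It was higher in NOD for Apol7c (4.65) and for the NK cell genes Klrb1c (4.42), Klra8 (3.71), Klrc1 (3.67), Ncr1 (3.61) and Nkg7 (3.61), and lower in NOD for Adamdec1 (-3.37), Cygb (-3.23), Mmp12 (-2.92), Vsx1 (-2.79), Olfr111 (-2.74) and Npl (-2.67). None of these NK cell genes was higher in CpG CD8+ cDC of NOD mice. There Ncr1 differed by -1.15, and Klrb1c (-0.07), Klra8 (-0.37), Klrc1 (0.06) and Nkg7 (-0.12) were not called. In B6 mice after CpG 19 of 20 NK cell markers were lower in CD8+ cDC. Klra8 and Klrc1 belong to families of near copies, and their probes may read other members. Groups of 3 arrays were not tested for single arrays that stand apart.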

How the results depend on the processing

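No called difference or interaction of a gene named here turned its sign under an alternative that tested it. In the run over every probe set only the probe set with the lowest adjusted p was read, so an opposite one would not show. The median of 14 of 40 lists did in at least 1, among them the neutrophil markers (-1.17, and 0.46 with the filter on 12 arrays), the cell cycle genes (-0.26, and 0.03 with array weights), oxidative phosphorylation (-0.13, and 0.04 without replicate 1 of CpG CD8+ cDC) and the B cell markers (0.02, and -0.32 without replicate 1 of CpG CD11b+ cDC). The count after CpG was 2560 genes in a fit of the compared groups alone and 3427 to 4842 with 1 array left out. The interaction with CpG was called for 2335 genes with array weights, 304 in a fit of the compared groups alone, and 480 to 1676 with 1 array left out. The interaction with strain was called for 1833 genes with array weights, 266 in a fit of the compared groups alone, and 419 to 1055 with 1 array left out. The weight of replicate 2 of CpG CD8+ cDC was 12.9, that of replicate 1 was 0.154 and that of replicate 3 was 0.392, so weighted results rest on that array. With 1 array left out the counts were 2040 to 2147 under PBS, 3216 to 4207 in B6, and 1548 to 1925 for genes called in the same direction in both conditions. With the replicate number as a block, 4734 genes were called after CpG, 2775 under PBS, 1139 for the interaction with CpG, 4614 in B6 and 829 for the interaction with strain, all within 1.5 times the counts without it. Of 80 list counts, 40 lists in each direction, 41 moved by over 1.5 times in at least 1 alternative, 22 with array weights, 17 in a fit of the compared groups alone, 9 with quantile normalization, 5 with the filter on 12 arrays and 23 with 1 array left out. Examples are the 7 higher transcription factors (4 with the compared groups alone), the 11 higher class I genes (28 over all probe sets), the 6 lower class II genes (10 with array weights), the 4 higher chemokine receptors (8 with array weights), the 5 higher glycolysis genes (8 with array weights), the 1 higher B cell marker (8 with array weights) and the 4 lower neutrophil markers (1 with the filter on 12 arrays). The causes were not tested. Low signals limit what can be read, since no detection call came with the values.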
